A study of Mus musculus with 24 samples.

Results

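The calcium release and uptake genes of skeletal muscle are described here in the extensor digitorum longus (EDL), a fast-twitch hindlimb muscle, and the soleus (SOL), a slower one, of the mouse. The set held 10 named genes, Cacna1s, Stac3, Ryr1, Trdn, Casq1, Casq2, Atp2a1, Atp2a2, Sln and Pvalb, taken by symbol from a table of 24537 genes, and each was found once. All 10 passed the filter on low counts. The mice were 2 months old and carried the 4F cassette on 1 allele (4Fhet), which encodes the reprogramming factors Oct4 (Pou5f1), Sox2, Klf4 and Myc (OSKM). Cre+ mice were Acta1-Cre+/4Fhet, in which Cre under the skeletal actin promoter of the myofiber unblocks the doxycycline (Dox) transactivator and GFP, and Cre- mice were Acta1-Cre-/4Fhet, so both genotypes carried the cassette. Every mouse, Cre- mice included, drank water with 1 mg/ml Dox, and EDL and SOL were taken after 2.5 days, after 5.5 days or after 8.5 days. Polyadenylated RNA of whole muscle was sequenced in 2 libraries for each muscle, genotype and day, 24 in all. The study names the 2 libraries of a group as separate biological samples.

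When a motor neuron fires, the voltage sensor of the myofiber membrane, which Cacna1s encodes, opens the ryanodine receptor Ryr1 in the facing sarcoplasmic reticulum, and calcium flows out to start contraction. Calsequestrins (Casq1, Casq2) hold calcium inside the store, triadin (Trdn) ties them to the channel, and SERCA pumps (Atp2a1, Atp2a2) return calcium to the store, under the restraint of the small peptide sarcolipin (Sln). Parvalbumin (Pvalb) binds calcium in the cytosol of fast fibers and speeds relaxation, and fast and slow fibers are known to use different pump and calsequestrin genes.

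The libraries held 36088781 to 54679082 counts, and the lowest member count in any library was 85, for Sln in EDL. The members took 4.87% to 6.504% of all counts in EDL and 2.35% to 3.14% in SOL. Levels are given as FPKM, fragments counted per kilobase of exon after scaling by the library's total, and differences as log2 fold changes of edgeR's quasi-likelihood test after TMM scaling, each with its standard error (SE). A gene was called when its Benjamini-Hochberg adjusted p over all genes tested was under 0.05 and its absolute log2 fold change over 0.5. The 2 scales differ: with library totals alone in place of TMM, the median log2 difference of all genes between Cre+ and Cre- EDL moved from -0.05 to 0.28 at 2.5 days and from -0.02 to 0.16 at 8.5 days, and the called genes went from 2118 higher and 1566 lower to 4207 and 610 at 2.5 days, and from 1173 and 999 to 1956 and 542 at 8.5 days. FPKM of Cre+ EDL therefore reads higher, against Cre-, than the fitted differences do. Permuting 2 libraries against 2 exactly gives no p under 0.333 for one gene, so tests within a day came from the fit across all genes.

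The summed level of Pou5f1, Sox2, Klf4 and Myc was 74.5 to 261 FPKM in the 4 Cre+ EDL libraries of 2.5 and 8.5 days and 9.48 to 20.5 FPKM in the Cre- ones. In SOL it was 31.3 to 57.8 FPKM in Cre+ and 13.6 to 25.2 FPKM in Cre- libraries. At 5.5 days the summed level was 13.1 and 109 FPKM in the Cre+ EDL libraries and 11.5 and 11.8 FPKM in the Cre- ones. Pou5f1 alone was at 1.02 FPKM in 1 Cre+ EDL library of that day and at 27.7 FPKM in the other. The libraries of 5.5 days, which the study left out, were fitted apart. The counts do not separate the cassette from the endogenous genes. Slow fiber markers, 8 genes among them Myh7, Myl2 and Tnni1, summed to 193 to 1673 FPKM in EDL and 34726 to 46582 FPKM in SOL at 2.5 and 8.5 days, as the labels of the muscles have it. Within EDL the Cre- library of 8.5 days replicate 1 was the highest, at 1673 FPKM, and the Cre- library of 2.5 days replicate 2 the lowest. The Cre- SOL library of 8.5 days replicate 2 held 43.8 FPKM of albumin (Alb), a liver transcript, where no other library passed 6.40 FPKM.

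In Cre- muscle the members formed a steep order of levels. Per length, EDL had most Pvalb, at 13148 ± 2095 FPKM (SD, n = 4), and Atp2a1, at 10323 ± 1571 FPKM, followed by Casq1 at 2444 ± 498 FPKM. Pvalb and Atp2a1 overlapped across the 4 libraries, and Casq1 stood clear of both. Ryr1, Trdn, Cacna1s and Stac3 lay together, with means from 202.5 to 268 FPKM and overlapping libraries. Casq2 at 36.2 ± 17.6 FPKM, Atp2a2 at 27.5 ± 19.8 FPKM and Sln at 8.08 ± 3.40 FPKM closed the order, and each overlapped its neighbor. In SOL the first was Atp2a1, at 3398 ± 582 FPKM, ahead of Atp2a2 at 1104 ± 152 FPKM and Casq1 at 883 ± 70.3 FPKM. Pvalb at 407 ± 183 FPKM, Sln at 282 ± 62.6 FPKM, Casq2 at 244.5 ± 55.3 FPKM and Ryr1 at 229 ± 56.3 FPKM overlapped one another, and Stac3, Cacna1s and Trdn had means of 182, 167.5 and 145 FPKM.

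**Figure D1:**
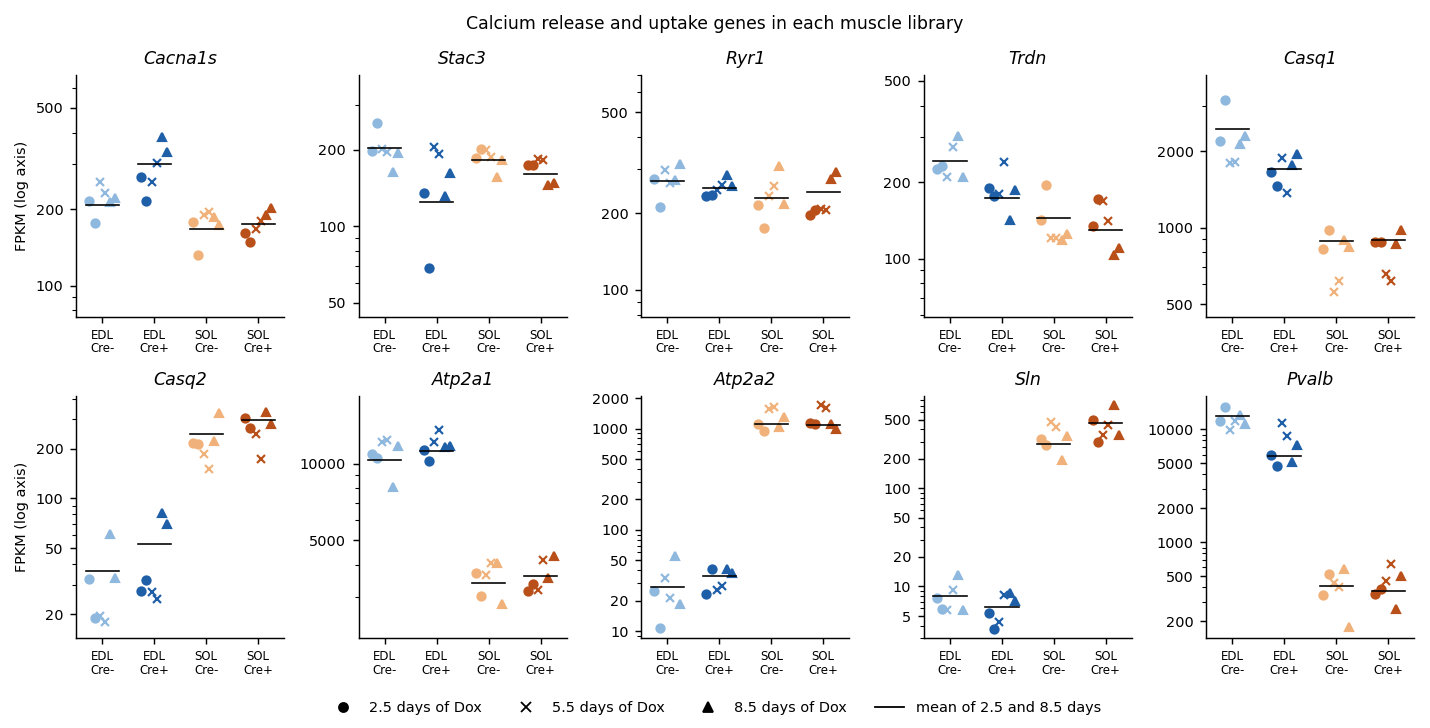
FPKM (log axis) of each member in every library, by muscle and genotype. Circles, crosses and triangles are libraries of 2.5, 5.5 and 8.5 days of Dox, and the bar is the mean of the 4 libraries of 2.5 and 8.5 days. Pvalb of the Cre+ EDL circles and triangles lies between 4791 and 7279 FPKM, below the Cre- ones at 11218 to 15947 FPKM, and Atp2a2 and Sln separate EDL from SOL in every library.

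The promoters of 4 members are shown because these genes mark fast or slow calcium handling: Casq1, Atp2a1 and Pvalb were higher in EDL and Casq2 in SOL. RefSeq's promoter table (GRCm38.p6, the assembly of mm10) matched 6 of the 10 members, Cacna1s, Casq1, Casq2, Ryr1, Atp2a1 and Pvalb. Each sequence runs 5′ to 3′ over the 250 bases before the gene's start, with E-boxes (CANNTG) and MEF2 sites, the elements that myogenic factors are known to bind, in capitals. The windows are chr1:172219896-172220145 on the minus strand for Casq1, chr3:102086165-102086414 on the plus strand for Casq2, chr7:126463074-126463323 on the minus strand for Atp2a1 and chr15:78206401-78206650 on the minus strand for Pvalb. The Pvalb window lies before the upstream of 2 RefSeq starts, 2163 bases from the start that the count table lists.
Casq1: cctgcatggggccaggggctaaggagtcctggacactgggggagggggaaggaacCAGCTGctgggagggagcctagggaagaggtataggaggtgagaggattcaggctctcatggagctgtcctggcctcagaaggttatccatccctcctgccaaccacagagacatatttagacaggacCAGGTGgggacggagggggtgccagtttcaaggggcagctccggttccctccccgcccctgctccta
Casq2: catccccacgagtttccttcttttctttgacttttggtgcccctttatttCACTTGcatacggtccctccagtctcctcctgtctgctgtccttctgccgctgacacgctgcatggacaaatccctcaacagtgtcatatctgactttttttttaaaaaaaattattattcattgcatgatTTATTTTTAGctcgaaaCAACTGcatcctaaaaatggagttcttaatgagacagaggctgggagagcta
Atp2a1: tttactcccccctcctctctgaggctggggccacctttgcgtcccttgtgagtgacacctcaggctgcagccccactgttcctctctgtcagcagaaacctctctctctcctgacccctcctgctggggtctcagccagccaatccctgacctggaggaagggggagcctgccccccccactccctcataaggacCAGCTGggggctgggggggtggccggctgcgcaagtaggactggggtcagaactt
Pvalb: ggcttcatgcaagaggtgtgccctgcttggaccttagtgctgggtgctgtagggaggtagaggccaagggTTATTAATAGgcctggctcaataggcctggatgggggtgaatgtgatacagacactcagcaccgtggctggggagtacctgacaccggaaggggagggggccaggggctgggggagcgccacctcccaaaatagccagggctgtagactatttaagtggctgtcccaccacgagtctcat
Both strands were searched, for the E-box, for the E-box CACGTG known from Myc, which the first includes, and for the MEF2, CArG, GC box (GGGCGG) and MCAT (CATTCC) elements. Casq1 held 2 E-boxes, 195 and 67 bases before the start, and 1 GC box. Casq2 held 2 E-boxes, 200 and 52 bases before the start, and 1 MEF2 match at 69 bases, and Atp2a1 held 1 E-box at 55 bases. The upstream Pvalb window had 1 MEF2 match, at 180 bases, and no E-box, whereas the window at the listed start had 1 E-box. Cacna1s carried 2 E-boxes, 1 GC box and 1 MCAT element, and Ryr1 carried 2 GC boxes and no E-box. The letters CACGTG and the CArG element were in none of these windows. Of 32851 promoter windows of this length, 66.2% held an E-box, 6.02% CACGTG, 2.92% a MEF2 match, 1.47% a CArG element, 32.7% a GC box and 12.6% a MCAT element, so an E-box match is common and a MEF2 match is not.

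Most of these genes differed between EDL and SOL. In Cre- mice, 7 of 10 members were called between the muscles, against 21.9% of the 15372 genes tested. Trdn, Casq1, Atp2a1 and Pvalb were higher in EDL, 4 of 10 against 10.8% of all genes, and Casq2, Atp2a2 and Sln were lower in EDL, 3 of 10 against 11.1%. The median log2 difference, EDL against SOL, was 0.36 over the members and 0.01 over all genes. Whole muscle was sequenced, so fewer fibers of a type and less RNA per fiber cannot be told apart.

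Pvalb had the widest gap in favor of EDL. In Cre- mice its level was 11928 and 15947 FPKM in EDL at 2.5 days and 13501 and 11218 FPKM at 8.5 days. The SOL libraries held 345 and 523 FPKM at 2.5 days and 583 and 178 FPKM at 8.5 days. No SOL library came near an EDL one, and the fitted difference was 5.10 (SE 0.40, adjusted p = 1.3e-06, edgeR), 34.2-fold. For the fast pump Atp2a1, Cre- EDL libraries held 10928, 10537, 8089 and 11737 FPKM, in the order of 2.5 and then 8.5 days, and SOL libraries 3704, 3031, 4056 and 2803 FPKM. The groups did not overlap, at a log2 difference of 1.69 (SE 0.20, adjusted p = 3.51e-05). Casq1 followed, with 2181, 3185, 2127 and 2284 FPKM in EDL and 822, 977, 896 and 837 FPKM in SOL. Again no libraries overlapped, and the difference was 1.56 (SE 0.15, adjusted p = 6.22e-06). The weakest of the 4 was Trdn, at 225, 232, 303 and 209 FPKM in EDL and 142, 195, 118 and 125 FPKM in SOL, with a difference of 0.85 (SE 0.15, adjusted p = 0.000901).

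The slow set ran the other way. Atp2a2, the pump of slow fibers and heart, was at 25.0, 10.7, 55.9 and 18.7 FPKM in Cre- EDL and at 1111, 951, 1044 and 1311 FPKM in Cre- SOL, a log2 difference of -5.33 (SE 0.37, adjusted p = 5.14e-07). Sln, whose peptide slows the pumps, was at 7.72, 5.86, 13.0 and 5.75 FPKM in EDL and at 317, 276, 197 and 339 FPKM in SOL, a difference of -5.05 (SE 0.32, adjusted p = 2.78e-07). Both genes separated the muscles in every library. Casq2, the calsequestrin shared with heart, was at 32.5, 18.8, 60.7 and 33.0 FPKM in EDL and at 215, 214, 222 and 327 FPKM in SOL, a difference of -2.72 (SE 0.20, adjusted p = 8.42e-07). Among the Cre- EDL libraries the one of 8.5 days replicate 1 held the most Atp2a2, Casq2 and Sln, and also the most slow fiber markers. The voltage sensor and the release channel differed least: Cacna1s was 0.39 higher in EDL (SE 0.13, adjusted p = 0.0392), under the fold threshold, and the differences were 0.32 for Ryr1 (adjusted p = 0.132) and 0.25 for Stac3 (adjusted p = 0.349).

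In Cre+ mice 7 of 10 members were again called between EDL and SOL, against 29.6% of all genes, with 4 higher in EDL against 15.0% and 3 lower against 14.6%. Pvalb differed by 3.89 (SE 0.38, adjusted p = 6.53e-06), Atp2a1 by 1.58 (SE 0.20, adjusted p = 4.72e-05) and Casq1 by 0.85 (SE 0.15, adjusted p = 0.000536), all higher in EDL. Lower in EDL were Sln, by -6.31 (SE 0.34, adjusted p = 9.18e-08), Atp2a2, by -5.01 (SE 0.36, adjusted p = 6.25e-07), and Casq2, by -2.71 (SE 0.20, adjusted p = 7.61e-07). Cacna1s passed both thresholds here, at 0.69 (SE 0.13, adjusted p = 0.00127), whereas Trdn, at 0.38 (adjusted p = 0.0603), and Stac3, at -0.44 (adjusted p = 0.0764), did not. Whether the gap between the muscles differed by genotype was tested within each day, through the interaction.

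**Figure D2:**
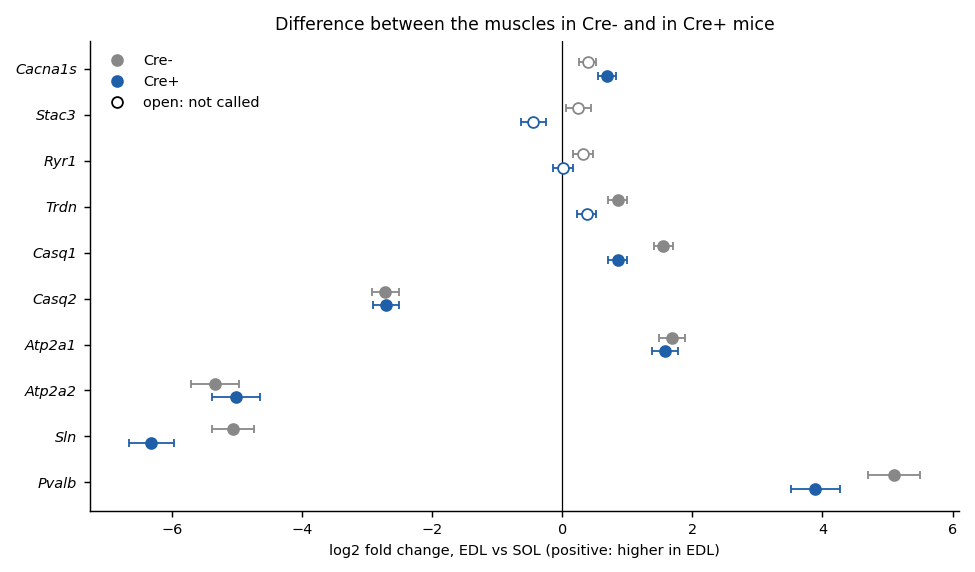
Log2 fold change of each member between EDL and SOL, with its SE, in Cre- (grey) and Cre+ mice (blue), over the 16 libraries fitted together. Filled points were called. Pvalb, Atp2a1 and Casq1 lie to the right and Casq2, Atp2a2 and Sln to the left in both genotypes, from -6.31 for Sln to 5.10 for Pvalb.

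Ratios of paired genes within a library, which do not depend on scaling between libraries, split the muscles too. They were formed from the levels given above, so this split and its p-values restate those differences and add no separate support. Atp2a1 made up 99.7% ± 0.27 (SD, n = 4) of the summed FPKM of the 2 pumps in Cre- EDL and 75.2% ± 4.91 in Cre- SOL. The log2 ratio of Atp2a1 to Atp2a2 was 7.18 to 9.95 in the Cre- EDL libraries and 1.10 to 1.96 in the SOL ones. Casq1 made up 98.4% ± 0.90 of calsequestrin FPKM in Cre- EDL and 78.3% ± 4.45 in Cre- SOL. Sln made up 0.0836% ± 0.0513 of the summed FPKM of Sln and both pumps in Cre- EDL and 5.998% ± 1.64 in Cre- SOL. In each of these 3 ratios the EDL and SOL libraries did not overlap in either genotype. Each gave p = 0.0286, the smallest that the two-sided exact permutation test of 4 against 4 libraries can give, and 0.0571 after Benjamini-Hochberg adjustment over the 16 ratio tests. With the 5.5-day libraries added, the exact permutation test gave an adjusted p of 0.00433 for each. These tests take the libraries as independent, and with EDL and SOL paired by number the exact permutation test of 4 pairs cannot go below p = 0.125 (0.222 after adjustment for these ratios).

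Cre+ EDL held less of 4 members than Cre- EDL at 2.5 days. Stac3, Trdn, Casq1 and Pvalb were called lower in Cre+ mice and no member was called higher, 4 of 10 against 24% of all genes in either direction and 10.2% lower. The median log2 fold change was -0.51 over the members and -0.05 over all genes. The lowered genes encode an adaptor of the voltage sensor, an anchor of the release channel, the fast calsequestrin and the cytosolic calcium buffer, and neither pump was among them.

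Pvalb held 11928 and 15947 FPKM in the Cre- EDL libraries of 2.5 days and 5932 and 4791 FPKM in the Cre+ ones. The Cre+ libraries were both below the Cre- ones, and the log2 fold change was -1.71 (SE 0.49, adjusted p = 0.0211, edgeR), 0.306 of the Cre- level. The call was lost without Cre+ replicate 2 (-1.52, adjusted p = 0.159) or Cre- replicate 2 (-1.45, adjusted p = 0.108). Stac3, which is known to bring the voltage sensor to the membrane and couple it to the channel, stood at 197 and 254 FPKM in Cre- and 135 and 68.4 FPKM in Cre+ libraries. The groups were apart, with Cre+ replicate 2 the lower, and the fold change was -1.47 (SE 0.27, adjusted p = 0.00169). The library with less Stac3 was the one with more of the induced factors, at 261 FPKM of summed OSKM against 74.5 FPKM. In the Cre+ EDL libraries of 8.5 days Stac3 was at 131 and 163 FPKM, with summed OSKM at 254 and 205 FPKM. The part of OSKM in these levels was not tested. At 2.5 days Casq1 went from 2181 and 3185 FPKM to 1649 and 1455 FPKM, with no overlap and a fold change of -1.12 (SE 0.21, adjusted p = 0.00176). The calls of Stac3 and Casq1 held under every alternative run. Trdn, at 225 and 232 FPKM in Cre- and 189 and 176 FPKM in Cre+ libraries, fell by 0.65 on the log2 scale (SE 0.21, adjusted p = 0.0377). This call was lost with library totals alone (-0.32, adjusted p = 0.251) and when any 1 of the 4 libraries was left out (-0.75 to -0.55, adjusted p = 0.059 to 0.223).

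The other members of EDL at 2.5 days did not pass. Sln was at 5.43 and 3.72 FPKM in Cre+ and 7.72 and 5.86 FPKM in Cre- libraries, both Cre+ libraries below the Cre- ones at a fold change of -0.89 (SE 0.45, adjusted p = 0.161). Ryr1 was at 235 and 236 FPKM against 274 and 212 FPKM (-0.37, adjusted p = 0.22), and Atp2a1 at 11376 and 10285 FPKM against 10928 and 10537 FPKM (-0.31, adjusted p = 0.421). Atp2a2 (0.51, adjusted p = 0.412), Casq2 (-0.11, adjusted p = 0.79) and Cacna1s (-0.02, adjusted p = 0.946) overlapped between genotypes, as Ryr1 and Atp2a1 did. Markers of the contractile apparatus were lower in the same libraries. Of 7 general myofiber markers 5 were called lower (Ckm, Acta1, Tnnc2, Ttn and Neb), their summed level going from 51894 to 57583 FPKM in Cre- EDL to 32589 to 41356 FPKM in Cre+ EDL over both days. Of 9 fast fiber markers Myh1, Tnni2 and Tnnt3 were called lower, and of 8 slow fiber markers Myh7b alone. Markers of other cell types were lower too: 3 of 5 for endothelium (Pecam1, Cdh5 and Flt1), with summed levels of 68.6 and 67.4 FPKM in Cre+ and 74.4 and 80.7 FPKM in Cre- libraries of that day, and 2 of 4 for smooth muscle (Cnn1 and Tagln), with 28.1 and 21.6 FPKM in Cre+ and 25.8 and 42.9 FPKM in Cre- libraries. No marker of the satellite cell, fibroblast, macrophage, adipocyte, Schwann cell, erythroid or liver lists was called. The part of cell and fiber content in the members' differences was not tested.

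At 8.5 days 1 of 10 members was called in EDL, against 14.1% of all genes, so the share was near the background. Trdn was at 303 and 209 FPKM in Cre- and 142 and 186 FPKM in Cre+ libraries, without overlap (-0.81, SE 0.21, adjusted p = 0.0219, edgeR). Its call was lost without Cre- replicate 1, the library rich in slow fiber markers (-0.54, adjusted p = 0.186), or without Cre+ replicate 1 (-0.59, adjusted p = 0.217). Pvalb was at 13501 and 11218 FPKM in Cre- and 5164 and 7279 FPKM in Cre+ libraries, all Cre+ below all Cre-, at -1.16 (SE 0.48, adjusted p = 0.128). Stac3 (-0.46, adjusted p = 0.277) and Casq1 (-0.43, adjusted p = 0.184) also lay below Cre- in both libraries without passing. Cacna1s lay above, at 384 and 335 FPKM in Cre+ and 213 and 222 FPKM in Cre-, with a fold change of 0.54 (SE 0.19, adjusted p = 0.0731), and was called by DESeq2 on the 16 libraries (0.54, adjusted p = 0.0204). Casq2 was at 82.0 and 70.3 FPKM in Cre+ and 60.7 and 33.0 FPKM in Cre- libraries (0.52, adjusted p = 0.216), and was called without Cre- replicate 1 (1.01, adjusted p = 0.0458).

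Over both days, a contrast added after the values were seen, 4 of 10 members were called lower in Cre+ EDL, against 24.1% of all genes in either direction and 11% lower. They were the 4 genes called at 2.5 days, whose libraries also enter this contrast, so it is not a separate repeat. The fold changes (edgeR) were -1.43 for Pvalb (SE 0.34, adjusted p = 0.00601), -0.97 for Stac3 (SE 0.19, adjusted p = 0.00168), -0.78 for Casq1 (SE 0.15, adjusted p = 0.00127) and -0.73 for Trdn (SE 0.15, adjusted p = 0.00225). For each of these genes the 4 Cre+ libraries lay below the 4 Cre- libraries in FPKM. The margin was least for Stac3, with 162.8 FPKM in the highest Cre+ and 163.4 FPKM in the lowest Cre- library. The share of all genes so separated is not given here, so this only describes genes already called. The call of Trdn was lost with library totals alone (-0.48, adjusted p = 0.0168), under the fold threshold. No member was called for a difference of the change between 2.5 and 8.5 days (edgeR, 2 of 10 at an unadjusted p under 0.05 and 0 by DESeq2), and neither was any other gene by edgeR (0%), whereas DESeq2 called 42 genes higher and 99 lower. That contrast gave 1.01 for Stac3 (SE 0.38, adjusted p = 0.432) and 0.69 for Casq1 (SE 0.29, adjusted p = 0.477). Without Cre+ replicate 1 of 2.5 days Stac3 was called in it (1.64, adjusted p = 0.0115).

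**Figure D3:**
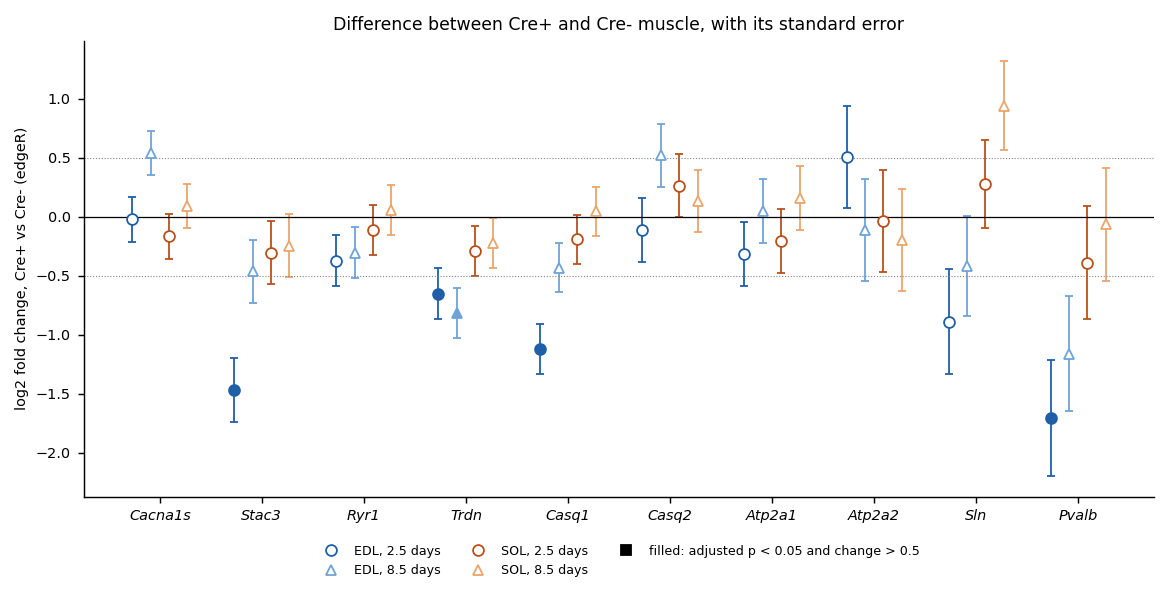
Log2 fold change of each member between Cre+ and Cre- mice, with its SE, in EDL (blue) and SOL (orange) at 2.5 (circles) and 8.5 days (triangles). Filled points were called and dotted lines mark the fold threshold of 0.5. The filled points are Stac3, Trdn, Casq1 and Pvalb in EDL at 2.5 days and Trdn in EDL at 8.5 days, and no SOL point is filled.

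In SOL no member was called at 2.5 days (edgeR, 0 of 10 at an unadjusted p under 0.05 and 0 by DESeq2, against 0.384% of all genes called). At 8.5 days none was called either, with 1 of 10 at an unadjusted p under 0.05, 0 by DESeq2 and 0.631% of all genes called. That gene was Sln, at 707 and 348 FPKM in Cre+ and 197 and 339 FPKM in Cre- libraries, with a fold change of 0.94 (SE 0.38, adjusted p = 0.63). The 4 genes called in EDL had fold changes in SOL of -0.39 to -0.19 at 2.5 days and -0.25 to 0.05 at 8.5 days. Pvalb in SOL was at 349 and 384 FPKM in Cre+ and 345 and 523 FPKM in Cre- libraries at 2.5 days, and the genotypes overlapped. Stac3 was at 174 FPKM in both Cre+ libraries and at 186 and 201 FPKM in the Cre- ones, at a fold change of -0.30 (SE 0.27, adjusted p = 0.671).

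The difference of the change between EDL and SOL was tested as an interaction between muscle and genotype. At 2.5 days no member was called (edgeR, 2 of 10 at an unadjusted p under 0.05 and 2 by DESeq2, against 4.25% of all genes called). Casq1 came closest, at -0.93 (SE 0.29, adjusted p = 0.09), with Stac3 at -1.17 (SE 0.38, adjusted p = 0.0998) and Pvalb at -1.32 (SE 0.68, adjusted p = 0.293). EDL and SOL libraries of the same number deviated together, and with that pairing as a replicate block by number Stac3 was called (-1.25, adjusted p = 0.0473). Stac3 was also called without EDL Cre+ replicate 1 (-1.80, adjusted p = 0.00225), and both genes by DESeq2 (adjusted p = 0.0298 for Stac3 and 0.014 for Casq1). At 8.5 days no member was called (edgeR, 1 of 10 at an unadjusted p under 0.05 and 0 by DESeq2, against 0.592% of all genes), with Sln at -1.36 (SE 0.57, adjusted p = 0.387). A larger change in EDL than in SOL was therefore not shown for these genes in the fit without the block.

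At 5.5 days no member was called in either muscle (edgeR, 0 of 10 at an unadjusted p under 0.05 and 0 by DESeq2 in each). Of all genes 0.304% were called in EDL and 0% in SOL. Pvalb was at 11376 and 8711 FPKM in Cre+ and 9966 and 11898 FPKM in Cre- EDL, and the genotypes overlapped. Stac3 was at 205 and 193 FPKM in Cre+ and 201 and 196 FPKM in Cre- EDL, with a fold change of -0.14 (SE 0.23, adjusted p = 0.939).

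One ratio did separate the genotypes. The log2 ratio of Ryr1 to Cacna1s, the release channel to its voltage sensor, was -0.19, 0.14, -0.45 and -0.39 in the Cre+ EDL libraries of 2.5 and then 8.5 days and 0.35, 0.26, 0.34 and 0.50 in the Cre- ones. All Cre+ libraries were below all Cre- libraries, by -0.59 (SE 0.14), at p = 0.0286 in the exact permutation test, the smallest it can give, and 0.0571 after adjustment. In SOL the same ratio was 0.30 to 0.53 in Cre+ and 0.27 to 0.73 in Cre- libraries, with a difference of 0.02 (SE 0.12, exact permutation p = 0.914). EDL and SOL did not differ in it beyond their spread in Cre- mice (-0.07, SE 0.11, exact permutation p = 0.686), and EDL was lower in Cre+ mice (-0.68, SE 0.14, exact permutation p = 0.0286, adjusted p = 0.0571). The ratios of the pumps, the calsequestrins and Sln to the pumps overlapped between genotypes in both muscles, the nearest to a gap being Casq1 to Casq2 in EDL (-1.02, SE 0.58, exact permutation p = 0.143). At 5.5 days Ryr1 to Cacna1s was -0.05 and -0.24 in Cre+ EDL and 0.20 and 0.18 in Cre- EDL libraries. Summed OSKM in those Cre+ libraries was 13.1 and 109 FPKM. The part of OSKM in this ratio was not tested, and the share of gene pairs so separated is not given here.

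**Figure D4:**
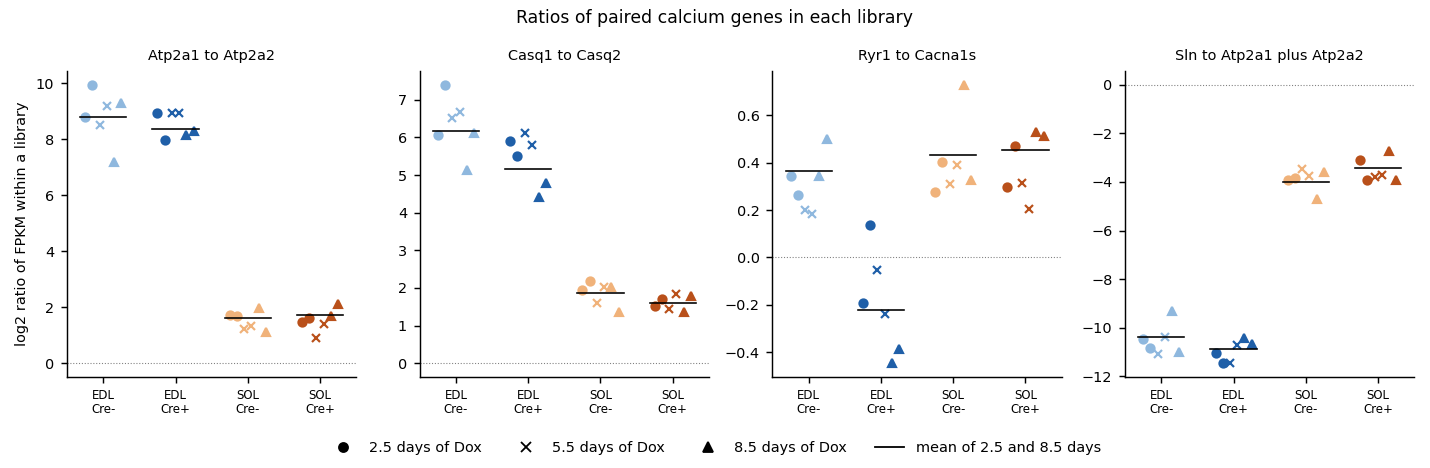
Log2 ratio of FPKM of paired members within each library, by muscle and genotype, with circles, crosses and triangles for 2.5, 5.5 and 8.5 days and the bar for the mean of 2.5 and 8.5 days. The panels of Atp2a1 to Atp2a2, Casq1 to Casq2 and Sln to the pumps split by muscle. In the panel of Ryr1 to Cacna1s the Cre+ EDL libraries lie from -0.45 to 0.14, under the Cre- EDL libraries at 0.18 to 0.50.

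Around the members, 66 of 67 listed genes of calcium handling were in the table (Strit1 was not matched). In EDL at 2.5 days 16 were called higher and 16 lower, 32 of 66 beside 24% of all genes called. That share was made of 2118 genes higher and 1566 lower of 15372 tested, the background for each list below. At 8.5 days 12 were called higher and 8 lower, 20 of 66 beside 14.1%. The median log2 fold changes were -0.19 and -0.03. In SOL none was called at 2.5 days (3 by DESeq2 on the libraries of the comparison) and 2 at 8.5 days, beside 0.384% and 0.631% of all genes. Between the muscles 35 differed in Cre- mice, 23 of them higher in EDL, beside 21.9% of all genes, and 25 in Cre+ mice, 17 of them higher in EDL, beside 29.6%.

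Of 4 listed subunits of the voltage sensor complex 2 rose and 1 fell in EDL at 2.5 days. Cacng1, a gamma subunit, was at 172 and 183 FPKM in Cre- and 499 and 435 FPKM in Cre+ EDL at 2.5 days, and rose by 1.07 (adjusted p = 0.00102), and by 1.77 at 8.5 days (adjusted p = 6.65e-05). Cacnb1, the beta subunit, rose by 1.08 (adjusted p = 8.64e-05) and 1.31 (adjusted p = 3.29e-05). These were also the 2 genes called in SOL at 8.5 days, at 1.18 for Cacng1 (adjusted p = 0.0114) and 0.70 for Cacnb1 (adjusted p = 0.0205). Each call was lost when any of 3 of the 4 libraries was left out, among them Cre- replicate 2, the library with the most albumin. Cacng6 fell in EDL at 2.5 days, by 1.15 on the log2 scale (adjusted p = 0.00318). Cacna2d1 was not called (-0.20, adjusted p = 0.542).

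Of 13 genes of the triad and its membranes, 2 rose (Bin1 and Cav3) and 7 fell in EDL at 2.5 days, beside 10.2% of all genes called lower. Among those that fell were Jph1, Jph2, Asph, Tmem38a, Speg and Ank1. Tmem38a, a counter-ion channel of the store, was at 1054 and 1024 FPKM in Cre- and 595 and 487 FPKM in Cre+ libraries, without overlap (-1.27, adjusted p = 0.000327), and was lower at 8.5 days too (-0.90, adjusted p = 0.00504). Jph2, which holds the store against the surface membrane, was at 284 and 308 FPKM against 162 and 90.8 FPKM (-1.55, adjusted p = 0.000833). Speg, a kinase of the triad, was at 46.2 and 41.2 FPKM against 25.2 and 15.4 FPKM (-1.43, adjusted p = 0.000546). Jsrp1, with Tmem38a the most abundant of the list, did not pass (-0.09, adjusted p = 0.624).

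Among 12 partners of the release channel and other release channels, S100a1, Ryr2 and Itpr3 rose and Calm2 and Itpr1 fell in EDL at 2.5 days. Calm2, 1 of 3 calmodulin genes, was at 159.8 and 173 FPKM in Cre- and 103 and 94.1 FPKM in Cre+ libraries (-1.08, adjusted p = 0.00102), and Calm3 did not pass (-0.08, adjusted p = 0.733). Itpr3, an inositol trisphosphate receptor, was at 1.501 and 1.17 FPKM in Cre- and 7.11 and 29.9 FPKM in Cre+ libraries (3.44, adjusted p = 0.000462). Over the Cre+ EDL libraries of both days it stood at 10.5 ± 13.2 FPKM (SD, n = 4). S100a1 rose by 0.51 (adjusted p = 0.0232), a call lost without any 1 of the 4 libraries (adjusted p = 0.0545 to 0.125).

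Pumps, stores and sinks other than the members moved in both directions. Atp2a3, the third SERCA, was at 3.35 and 2.82 FPKM in Cre- and 24.9 and 51.6 FPKM in Cre+ EDL at 2.5 days (3.29, adjusted p = 9.76e-05), and at 3.20 and 3.42 FPKM against 17.5 and 8.57 FPKM at 8.5 days (1.78, adjusted p = 0.00589). Its level stayed far below that of Atp2a1 in each of these libraries. Of the 7 genes of its list Mrln, Camk2a and Camk2g fell at 2.5 days, with Camk2a at -0.92 (adjusted p = 0.000846), and Camk2b did not pass (-0.27, adjusted p = 0.147). Of 3 store proteins Calr rose, Srl fell (-0.55, adjusted p = 0.0241, a call lost with library totals alone at -0.23 and without 3 of the 4 libraries at -0.56 to -0.37) and Hrc, a histidine-rich calcium binder, did not pass (0.01, adjusted p = 0.969). Of 7 plasma membrane exporters Atp2b4 rose (1.45, adjusted p = 0.00107) and Atp2b3 and Slc8a1 fell, while Slc8a3 (-0.61, adjusted p = 0.0553) and Atp2b1 (0.21, adjusted p = 0.352) did not pass. Of 5 genes of store-operated entry Orai2 rose, and Stim1 (0.01, adjusted p = 0.971) and Orai1 (-0.22, adjusted p = 0.378) did not pass.

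The 3 mitochondrial uniporter genes and 2 calcineurin genes that passed in EDL at 2.5 days rose, whereas at 8.5 days 2 of the uniporter list rose and 1 fell. Of 6 genes of the uniporter list 3 were called, among them Mcu, the pore, and Micu2, a regulator of it. Smdt1, the most abundant of the list, did not pass (-0.08, adjusted p = 0.663). At 8.5 days 2 genes of the list were called higher, Micu2 among them. Micu3, another regulator, was called lower on that day (-0.79, adjusted p = 0.0177), and the median of the list was -0.0027. Of 9 genes of calcineurin and NFAT, 2 were called on each day, Rcan1 and Ppp3ca, both higher. That share was beside 24% of all genes at 2.5 days and 14.1% at 8.5 days. The median of the list was -0.34 at 2.5 days and -0.05 at 8.5 days, so the 2 genes do not stand for the list. Rcan1, a calcineurin inhibitor whose transcription calcineurin is known to drive, was at 26.1 and 34.1 FPKM in Cre- and 94.3 and 113 FPKM in Cre+ libraries at 2.5 days (1.45, adjusted p = 9.9e-05). Ppp3ca, a catalytic subunit, was at 44.3 and 47.2 FPKM against 94.3 and 102 FPKM (0.77, adjusted p = 0.000416). At 8.5 days the calls named here for Tmem38a, Speg, Calm2, Atp2a3, Atp2b4 and Rcan1 were lost without Cre+ replicate 1 (adjusted p = 0.0592 to 0.184), and that of Rcan1 also with all 24 libraries in the fit (0.58, adjusted p = 0.108).

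**Figure D5:**
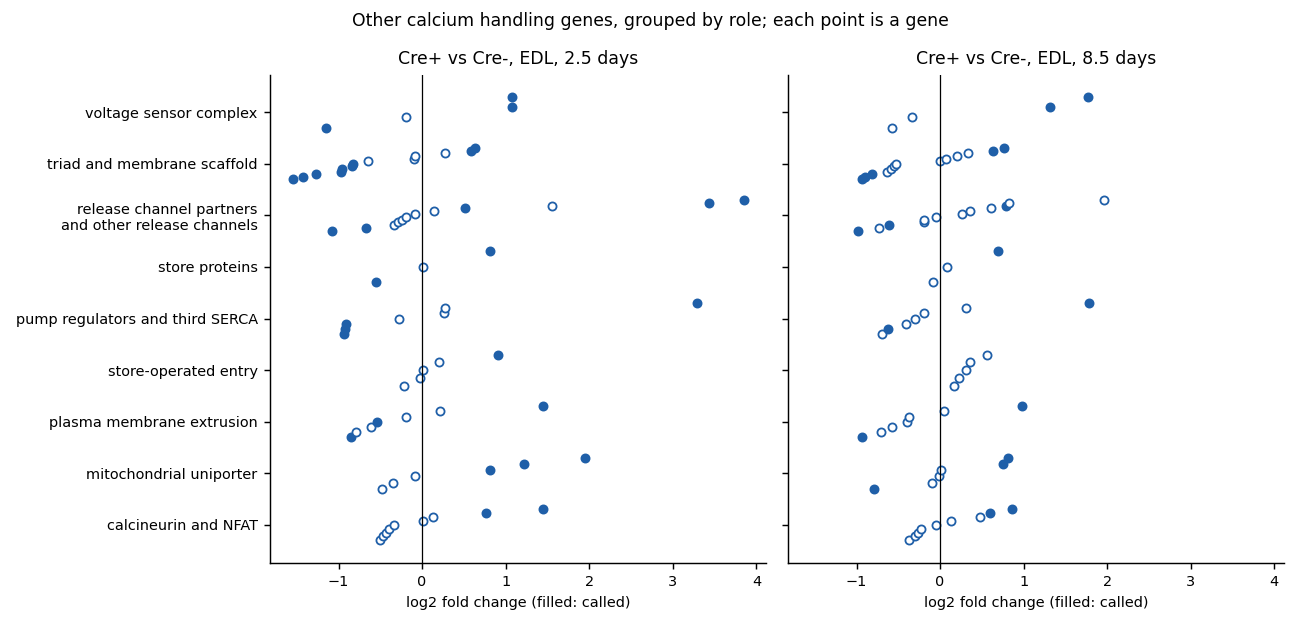
Log2 fold change between Cre+ and Cre- EDL of 66 other calcium handling genes, grouped by role, at 2.5 days (left) and 8.5 days (right). Each point is a gene and filled points were called. At 2.5 days 16 filled points lie on each side of 0, with the triad and membrane scaffold mostly to the left and the mitochondrial uniporter to the right. Of all genes, 24% were called at 2.5 days, 10.2% of them lower in Cre+ as a share of all genes tested.

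The genes whose FPKM followed each member most closely over the 24 libraries included markers of fiber type. By Pearson's r of log2(FPKM + 1) among 11361 genes, a description over libraries that share muscle and mouse, the nearest to Atp2a2 were Tnnc1 (0.997), Tnnt1 (0.996) and Tpm3 (0.995), slow troponin and tropomyosin genes. Sln was nearest to Myoz2 (0.984), Sim2 and Tnnc1 (both 0.983), and Casq2 to Arhgap24 (0.980), Pdlim1 (0.975) and Mgrn1 (0.972). Atp2a1 was nearest to Mybpc2 (0.984), Actn3 (0.981), both fast sarcomere genes, and Gpd2 (0.973). Pvalb was nearest to Cntnap2 (0.986), Camk2a and Mstn (both 0.985), and Casq1 to Atp1b2 (0.972), Slc16a3 (0.964) and Man2a2 (0.960). The nearest genes of the other members were Ube2e1 for Trdn (0.949), Rxra for Cacna1s (0.927), Rpl3l for Stac3 (0.862) and Fan1 for Ryr1 (0.794).

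On the mm10 build that the count table uses, Cacna1s spans chr1:136052901-136119822 and Casq1 chr1:172209894-172219895, Casq2 chr3:102086455-102146512, Atp2a2 chr5:122453513-122502225 and Sln chr9:53850251-53853849. Ryr1 lies at chr7:29003340-29125151, Atp2a1 at chr7:126445860-126463073, Trdn at chr10:33083483-33476709, Stac3 at chr10:127501717-127508815 and Pvalb at chr15:78191112-78204237. The values are sums over the exons of each gene. Exons of Atp2a1 overlap Rabep2 on the opposite strand, and exons of Cacna1s, Ryr1, Casq1 and Atp2a2 overlap annotated transcripts of the other strand. The libraries were labelled as stranded and the strand setting of the counting was not given in the sources used here, so reads of such partners may not be separated. The transcript listed for Atp2a2 is a non-coding RefSeq variant of 5704 bases, whose length sets its FPKM but not its differences between libraries.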

How the data were processed

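Per the labels, stranded single-end reads of polyadenylated RNA were aligned by the authors to mm10 with STAR 2.5.3a after FastQC 0.11.2, and HOMER counted uniquely mapped reads over RefSeq exons. The deposited values are raw counts per gene and library, with no normalization. Genes passing filterByExpr (minimum count 10) were tested in R 4.3.3 with edgeR 4.0.16 (TMM, quasi-likelihood test), with 1 mean for each of 8 groups over the 16 libraries of 2.5 and 8.5 days (15372 genes), or 12 groups over 24 libraries (15478 genes) for 5.5 days. The study tested pairs of groups with DESeq2, run here as DESeq2 1.42.0 among the alternatives, with library totals in place of TMM, other filters, all 24 libraries, replicate blocks and each library left out. FPKM was computed from the counts, the listed exon lengths and the total counts. Ratios were compared with exact permutation tests (SciPy 1.17.1). On simulated counts of 15147 genes for Cre+ against Cre- EDL at 2.5 days, 62 of 100 genes changed by 1 on the log2 scale were called, and 99 of 100 changed by 1.5. These counts had the same spread for every gene and no other gene was changed, so the shares need not hold for the members. A count of 0 would allow at most 0.0831 CPM (3 counts), for counting error only. Named were all 10 members, the 2 most abundant genes of each calcium handling list, the 5 largest rises and falls called in EDL at 2.5 days with a mean of at least 1 FPKM, the 3 nearest genes of each member, and the OSKM genes. Some items are withheld and not reported here. Other called genes of the lists, and markers, were picked for naming with their values in view. The members and lists were chosen with earlier results of these data known. Libraries of 1 group differed beyond counting noise, and p-values measure only the spread between these libraries. EDL and SOL libraries of the same genotype, day and number deviated together (r = 0.173 to 0.445 over 6 pairs), which the labels do not state, so their numbers were taken as pairing the muscles, and Cre+ and Cre- libraries did not (r = -0.169 to 0.0578).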

Additional observations from a re-analysis of the deposited data

Results flagged for a closer look

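The interaction between muscle and genotype is the difference of the change between EDL and SOL (edgeR). At 2.5 days 5 of the 66 other calcium handling genes were called higher and 3 lower in it, beside 4.25% of all genes. At 8.5 days 0 of 66 were called, beside 0.592%, so what follows is of 2.5 days only. No member was called in that fit, whereas Stac3 was with EDL and SOL paired by number (-1.25, adjusted p = 0.0473). By DESeq2 Stac3 (adjusted p = 0.0298) and Casq1 (adjusted p = 0.014) were called. Rcan1, the calcineurin inhibitor, differed by 1.38 (adjusted p = 0.00885), a call lost only without SOL Cre+ replicate 2 (adjusted p = 0.0545). Atp2a3 differed by 2.63 (adjusted p = 0.0146), Itpr3 by 3.02 (adjusted p = 0.0315) and Micu2 by 0.95 (adjusted p = 0.0197). Calm2 differed by -1.08 (adjusted p = 0.0379), Camk2g by -0.74 (adjusted p = 0.0374) and Camk2a, a kinase that acts on the pumps and channels, by -0.86 (adjusted p = 0.044). Without 1 library the calls named here, other than that of Rcan1, were lost in 6 or 7 of 8 cases each, at adjusted p = 0.0516 to 0.177, with no change of direction. The call of Calm2 was also lost with library totals alone (-0.90, adjusted p = 0.0567), and that of Camk2a with the replicate number as a block between genotypes (adjusted p = 0.0576). Summed OSKM was higher in Cre+ EDL than in Cre+ SOL libraries, and its part in these differences was not tested.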

How the results depend on the processing

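The calls of Stac3 and Casq1 in EDL at 2.5 days and the 7 calls between the muscles in each genotype kept their direction and their side of the threshold under every alternative run. In EDL at 8.5 days the count of members called, 1 in the report, was 3 by DESeq2 on the 4 libraries of the comparison and 2 by DESeq2 on the 16 libraries, with all 24 libraries or with library totals alone. For the difference between muscles at 2.5 days, 0 in the report, it was 2 by DESeq2 and 1 with all 24 libraries. The replicate block that pairs EDL with SOL by number gave 1 for that difference, and no block changed another count of members. With the numbers as a block between genotypes the other calcium genes called in EDL were 33 and 21, against 32 and 20. Their count in SOL at 2.5 days, 0 in the report, was 3 by DESeq2 on the libraries of the comparison, 1 by DESeq2 on the 16 libraries and 1 with library totals alone. Leaving out 1 library gave 2 to 3 members in EDL at 2.5 days, 0 to 1 at 8.5 days, 0 to 1 for the difference between days and 0 to 1 for the difference between muscles at 2.5 days. The other calcium genes numbered 21 to 31 in EDL at 2.5 days, 8 to 24 at 8.5 days (8 without Cre+ replicate 1, 12 without Cre- replicate 1) and 0 to 1 in SOL at 8.5 days. With the 5.5-day libraries added, the muscle differences were 7.31 in Cre- and 6.998 in Cre+ mice for Atp2a1 to Atp2a2, 4.46 and 3.81 for Casq1 to Casq2 and -6.63 and -7.42 for Sln to the pumps, and Ryr1 to Cacna1s differed by -0.50 between genotypes in EDL and by -0.58 between muscles in Cre+ mice, each past the threshold in tests that left out any pairing. In that setting the genotype difference of Ryr1 to Cacna1s in SOL turned from 0.02 to -0.017. Without 1 library it ran from -0.033 to 0.12, the genotype difference of Atp2a1 to Atp2a2 in SOL from -0.063 to 0.22, and the muscle difference of Ryr1 to Cacna1s in Cre- mice from -0.12 to 0.029. Of all genes, 1288 higher and 714 lower were called in EDL at 2.5 days without Cre+ replicate 2, and 543 and 195 at 8.5 days without Cre+ replicate 1. The cause of these changes was not tested. With 2 libraries a group, changes of 1 on the log2 scale could be missed.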

Other observations

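In SOL of both genotypes the 5.5-day libraries stood apart from those of the other days in Atp2a2 and Casq1. Atp2a2 was at 1559 and 1639 FPKM in the Cre- and 1691 and 1589.9 FPKM in the Cre+ SOL libraries of 5.5 days, and the 8 SOL libraries of 2.5 and 8.5 days ran from 951 to 1311 FPKM. Casq1 was at 558 and 615 FPKM in Cre- and 656 and 614 FPKM in Cre+ SOL at 5.5 days, below the 822 to 977 FPKM of the other days. Slow fiber markers summed to 46527 and 44728 FPKM in Cre- and 56211 and 48487 FPKM in Cre+ libraries of that day, and to 34726 to 46582 FPKM on the other days. The days were not tested against each other, and day of treatment and day of sampling cannot be told apart. These 2 members were picked with the values in view, and the share of all genes so separated by day is not given here.

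In EDL the Casq2 libraries of 8.5 days lay above those of 2.5 days in both genotypes, at 60.7 and 33.0 FPKM against 32.5 and 18.8 FPKM in Cre- and at 82.0 and 70.3 FPKM against 27.4 and 32.1 FPKM in Cre+ libraries. In Cre- EDL the days nearly met, at 33.0 FPKM of 8.5 days against 32.5 FPKM of 2.5 days. The library at 60.7 FPKM was replicate 1, which held the most slow fiber markers of EDL. The share of all genes so ordered by day is not given here, and the days were not tested against each other within a genotype. The genotype difference changed by 0.64 between the days (SE 0.38, adjusted p = 0.62, edgeR), which was not called.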
